A study of Mus musculus with 82 samples.

Results

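The experiment described here asked what changes in the transcriptome of transplanted hematopoietic stem cells (HSCs) when a short variant of Btaf1 is knocked down. It comprises 6 of the 82 samples of the series, chosen by their titles: 2 libraries with a scrambled control shRNA (shControl), 2 with Btaf1_shRNA1 and 2 with Btaf1_shRNA2. All 6 came from genetically wild-type (WT) bone marrow HSCs of old C57BL/6J male donors. These HSCs had been cultured briefly, infected with a GFP-marked lentivirus and transplanted with myeloid progenitor cells into irradiated young female recipients. GFP-positive donor HSCs were then sorted as Lineage-negative Sca-1-positive Kit-positive CD48-negative CD150-positive cells, and each library pooled cells of several recipients, so a library stands for a pool and not for an animal. The hairpins were designed against the 3′ UTR that only the short variant carries. Poly(A) RNA was amplified by a full-length template-switching method and sequenced, and gene-level read counts were analysed. The labels do not say whether replicates came from separate donor pools, so p-values measure only the spread between these libraries. In addition, 6 cultured knockdown libraries and 12 libraries of young (4) and old (8) HSCs were used for comparison.

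BTAF1 is an ATPase that removes the TATA-binding protein, TBP, from promoter DNA and so redistributes it between promoters. TBP is the subunit of the general factor TFIID that recognises the TATA box, the element from which many inducible and lineage genes start transcription. The short variant lacks the C-terminal ATPase domain of the canonical protein. Old HSCs (OHSCs) are known for expansion of the stem cell pool, a bias toward megakaryocytes and myeloid cells and weaker lymphoid output, together with higher levels of genes such as Selp, Clu and Vwf.

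The libraries held 37601706 to 42142361 counted reads and 24859 to 25332 genes with at least 1 read, with 0.766% to 1.00% of reads from mitochondrial genes. Pairwise correlations of log2 CPM (CPM is the count scaled to library size with TMM factors) were 0.975 to 0.981 between replicates of the same hairpin and 0.974 to 0.980 between libraries of different hairpins, so the ranges within and between groups nearly coincided. All 25 LT-HSC genes of a marker list passed the filter on low counts, with Kit at 1300 to 1636 CPM and Adgrg1 at 2998 to 3355 CPM. The Y-linked genes Ddx3y (72.1 to 139 CPM) and Eif2s3y (118 to 135 CPM) of the male donors were present in every library, and Xist, which marks cells of the female recipients, stood at 2.40 to 4.84 CPM.

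Btaf1 was lower in every knockdown library than in either control. The gene lies on chromosome 19 (GRCm38, chr19:36926079-37012752, plus strand), and its full-length transcript in GENCODE M21 has 38 exons. Its level was 161 and 166 CPM in the shControl libraries, 131 and 139 CPM with shRNA1 and 120 and 118 CPM with shRNA2. The 4 knockdown libraries (127 CPM ± 9.89, SD, n = 4) did not overlap the 2 controls (164 CPM ± 3.95, SD, n = 2), and the level was 82.3% of control with shRNA1 and 72.5% with shRNA2. The log2 fold change was -0.37 (SE 0.077; edgeR quasi-likelihood test, unadjusted p = 0.000891). Gene-level counts add the short and the canonical variant together, so this value checks the target only in part. In cultured HSCs infected with the same hairpins Btaf1 had a log2 fold change of -0.32 (SE 0.064), and the effects in the transplanted and cultured cells differed by -0.057 (SE 0.092) on the log2 scale.

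The other genes of the Btaf1 chromatin domain had unadjusted p above 0.05. Ide, the insulin-degrading enzyme gene, was at 447 and 456 CPM in controls and 398 to 445 CPM after knockdown, with a log2 fold change of -0.078 (SE 0.059). Tnks2 (0.00082, SE 0.13), March5 (-0.029, SE 0.066), Cpeb3 (-0.0078, SE 0.30) and Fgfbp3 (0.064, SE 0.13) had log2 fold changes within 1 SE of 0. Tbp itself had a log2 fold change of 0.097 (SE 0.072), with 110 and 109 CPM in controls and 106 to 121 CPM after knockdown. Among 26 tested genes for TBP, its regulators and the TFIID subunits, Btaf1 was the only member at an unadjusted p below 0.05, and the median log2 fold change of the 26 was -0.02. Of 26 genes of RNA polymerase II and its general factors, Ercc2, a helicase subunit of TFIIH, passed p below 0.05 with 15.5 and 13.3 CPM in controls and 17.5 to 20.4 CPM after knockdown.

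**Figure D1:**
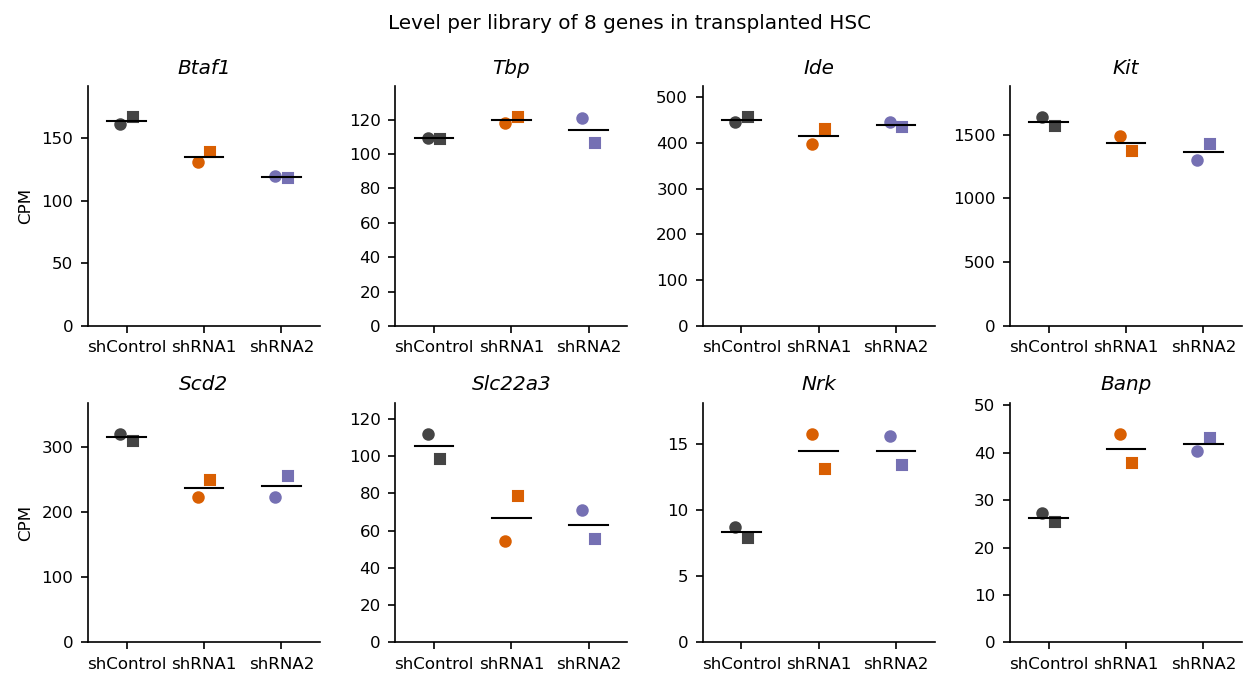
Level in CPM (linear axis from 0) of 8 genes in the 6 transplanted libraries; circles are replicate 1, squares replicate 2 and horizontal bars the mean of the 2 libraries. Btaf1, Kit, Scd2 and Slc22a3 lay below both controls in all 4 knockdown libraries, as did Ide by a narrow margin (highest knockdown library 445 CPM, lower control 447 CPM), Nrk and Banp lay above both, and Tbp overlapped.

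Across the transcriptome the knockdown effect was small against the spread between libraries. Of 20350 genes tested, no gene had a Benjamini-Hochberg adjusted p below 0.05 in edgeR (lowest 0.791), while 1138 had an unadjusted p below 0.05; DESeq2 gave 48 genes at an adjusted p below 0.05. At the limits the study used (fold change above 1.5 and unadjusted p below 0.05, here termed called), 290 genes were higher (1.43% of those tested) and 165 lower (0.811%). The balance depended on the fit: 387 genes were called higher and 341 lower without the filter on low counts, and 261 and 228 with 3 groups. Without the fold limit 3.27% of genes passed p below 0.05 as higher and 2.32% as lower. Single-gene values from this comparison therefore describe these 6 libraries, and none passed after adjustment in edgeR. Called genes were mostly of low abundance: the median over the 6 libraries was 1.19 CPM for those called higher and 1.67 CPM for those called lower, against 12.05 CPM for all tested genes.

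**Figure D2:**
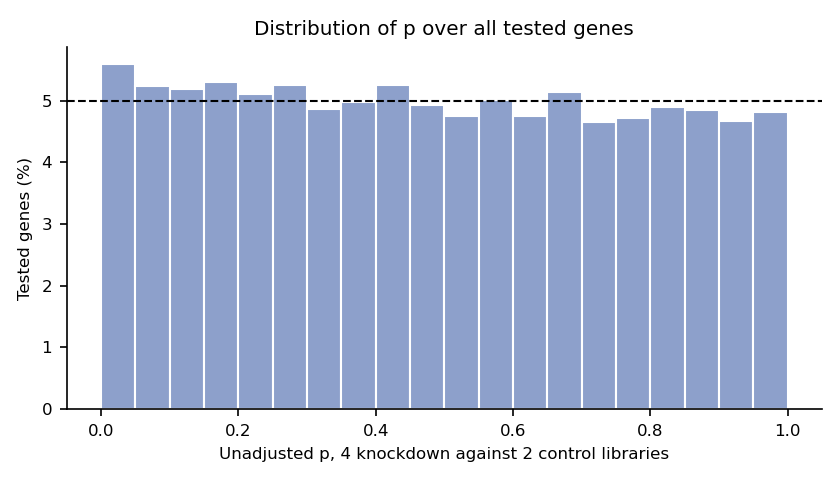
Share of the 20350 tested genes (y axis, %) in each of 20 bins of unadjusted p (x axis) for 4 knockdown against 2 control libraries, with a dashed line at the 5% that an even distribution would give. The bin below 0.05 held 5.59% of genes and the others between 4.66% and 5.30%.

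Each hairpin was also set against the same 2 controls on its own, and shRNA2 gave more called genes than shRNA1. With shRNA1, 240 genes were called higher (1.18%) and 210 lower (1.03%), and with shRNA2, 416 were higher (2.04%) and 352 lower (1.73%). Of the genes called with the 4 libraries pooled, 254 higher genes (1.25% of those tested) and 130 lower genes (0.639%) also passed the 1.5-fold limit with each hairpin separately. Both contrasts share the 2 controls and start from genes already called in the pool, so this agreement is partly built in. For 211 of the 254 and 118 of the 130 the 4 knockdown libraries did not overlap the 2 controls. Over all tested genes, 7.77% had all 4 knockdown libraries above both controls and 6.92% had all 4 below.

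Among the genes seen with both hairpins and without overlap, the 10 largest rises with established gene names belonged to genes with 0 to 4 reads in each control, so reads are given in place of folds. In each library 71.2% to 72.5% of counts from 1 to 20 were even; if the mates of a pair were each counted, the fragments behind these numbers are fewer than the reads printed, which was not tested. Rnf43, a ubiquitin ligase that limits Wnt signalling, had 0 reads in both controls and 7 to 22 reads in the knockdown libraries. Slco4c1 (6 to 24 reads), Fcgr4 (2 to 32), Kcnu1 (2 to 22), Syt14 (2 to 18) and Lrrc6 (2 to 12) likewise had 0 reads in both controls. Mmp8, a neutrophil collagenase, had 2 and 0 reads in controls against 275, 6, 88 and 4 reads, and Mmp9, a gelatinase of neutrophil granules, 4 and 4 against 246, 14, 44 and 66. Rhd, an erythrocyte membrane protein, had 2 and 0 reads against 5, 6, 160 and 23, and the chemokine gene Cxcl5 2 and 0 against 34, 2, 38 and 25. These rises were thus carried unevenly, with Mmp8 and Mmp9 highest in shRNA1 replicate 1 and Rhd highest in shRNA2 replicate 1.

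Among the 10 largest falls each knockdown library held 0 to 18 reads. Insm1, a zinc finger factor of neuroendocrine cells, had 82 and 352 reads in controls and 2, 4, 0 and 14 reads after knockdown, so the controls themselves lay far apart (1.95 and 9.42 CPM). Jph4, a junctophilin, had 40 and 68 reads against 18, 4, 2 and 2, and Xlr3a 138 and 15 against 1, 4, 11 and 5. Col9a3 (42 and 11 reads in controls), Mrvi1 (27 and 20), Tenm2 (16 and 27), Cnksr2 (18 and 14), Tnfaip6 (14 and 16), Opcml (14 and 14) and Bcar1 (14 and 10) had 0 to 10 reads in each knockdown library.

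Genes with a mean of at least 10 CPM over the 6 libraries were looked at apart, a group chosen after the values were seen. Of 10566 such genes 29 were called higher (0.274%, against 1.43% of all genes) and 18 lower (0.170%, against 0.811%). Of these called genes, 12 with established names were higher and 8 lower with both hairpins and without overlap, a choice that itself selects separated libraries. Banp, a chromatin protein that binds unmethylated CpG-rich promoters, was at 27.3 and 25.3 CPM in controls and 44.0, 37.7, 40.4 and 43.1 CPM after knockdown (1.57-fold, log2 0.65, SE 0.10, unadjusted p = 0.000111). The SD among the 4 knockdown libraries (2.84 CPM) was smaller than the difference between the means, 26.3 and 41.3 CPM. Serpini1, which encodes neuroserpin, was at 24.3 and 27.5 CPM against 32.9 to 50.9 CPM, and Nrk, a kinase gene, at 8.75 and 7.92 CPM against 13.1 to 15.8 CPM. Eps8l1 (2.83-fold), Mab21l2 (2.35-fold), Gria3 (1.97-fold), Ptgr1 (1.74-fold), Gem (1.70-fold), Ms4a6b (1.70-fold), Hvcn1 (1.63-fold) and Zfp979 (1.55-fold) were also higher.

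Of the abundant genes that were lower, Slc22a3, an organic cation transporter gene, had the lowest p. It was at 112 and 98.5 CPM in controls, 54.7 and 78.4 CPM with shRNA1 and 70.9 and 55.6 CPM with shRNA2 (1.62-fold lower, log2 -0.70, SE 0.14, unadjusted p = 0.000939). Egr1, an immediate early transcription factor linked to HSC quiescence, was at 70.2 and 100.1 CPM in controls and at 44.9, 65.3, 30.2 and 38.2 CPM after knockdown (1.91-fold lower). The other genes of this group were Amotl2 (1.96-fold lower), Khdrbs3 (1.83-fold lower), Rarb, a retinoic acid receptor (1.73-fold lower), Abat (1.72-fold lower), Znrf2 (1.62-fold lower) and Epb41l5 (1.52-fold lower).

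Mitosis genes passed as higher at an unadjusted p in part of the list. Of 25 tested mitosis genes, all 25 had a positive log2 fold change, 14 passed p below 0.05 as higher (3.27% of all genes did) and 0 as lower. Cenpf also passed the 1.5-fold limit, though not with shRNA2 alone (1.43% of all genes were called higher). The median was 0.34 with the 4 libraries pooled, 0.45 with shRNA1 and 0.19 with shRNA2, against 0.0021 for all genes. Bub1, a kinase of the spindle checkpoint, was at 19.8 and 20.5 CPM in controls, 34.3 and 28.4 CPM with shRNA1 and 27.4 and 28.0 CPM with shRNA2. Kif23, a kinesin of cytokinesis, was at 36.9 and 39.9 CPM against 57.7, 52.4, 49.7 and 50.9 CPM, and Tpx2, a spindle assembly factor, at 54.2 and 57.7 CPM against 75.4, 71.5, 67.0 and 74.0 CPM. For these 3 genes the controls lay close together and below every knockdown library. Kif11, a spindle kinesin, was at 61.5 and 82.0 CPM against 117, 103, 95.02 and 99.3 CPM.

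The size of this mitosis shift depended on which control was used. The controls differed by 0.41 in the median log2 level of the list, shControl replicate 1 being lower, and the median of shRNA2 replicate 1 (0.13 above the control mean) lay below that of shControl replicate 2 (0.20 above it). Without shControl replicate 1, 4 of the 25 genes passed p below 0.05, without shControl replicate 2 24 did, and without shRNA1 replicate 1 8 did. Of 33 DNA replication genes 2 passed as higher and 0 as lower, with a median of 0.06. They were Prim1, the primase subunit (66.7 and 68.8 CPM in controls, 79.7 to 91.3 CPM after knockdown), and Pola1, the catalytic subunit of polymerase alpha (114 and 124 CPM against 138 to 149 CPM).

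Cholesterol and fatty acid synthesis genes passed as lower in part of the list, and 3 had positive log2 fold changes. Of 28 tested members 9 passed p below 0.05 as lower (2.32% of all genes did) and 0 as higher. All 4 knockdown libraries lay below both controls for 10 members (6.92% of all genes). The median log2 fold change was -0.23 (-0.21 with shRNA1 and -0.17 with shRNA2). Scd2, a stearoyl-CoA desaturase, was at 320 and 309 CPM in controls, 223 and 249 CPM with shRNA1 and 223 and 256 CPM with shRNA2 (log2 -0.40, SE 0.071, unadjusted p = 0.000282). Cyp51, which demethylates lanosterol, was at 63.8 and 54.8 CPM against 37.5, 43.1, 49.3 and 43.1 CPM. Msmo1, an enzyme further along the same branch, was at 63.3 and 50.6 CPM against 37.0, 31.9, 43.7 and 43.4 CPM. In these genes no knockdown library reached the lower control. Sqle, Sc5d, Srebf2 and Idi1 were also below 0.05, Srebf2 being the master transcription factor of the pathway (328 and 338 CPM in controls, 259 to 309 CPM after knockdown). Of the 28, 1 also passed the 1.5-fold limit (0.811% of all genes were called lower). The median of each knockdown library lay 0.15 to 0.25 below the control mean and those of the controls 0.046 above and below it. Without shControl replicate 1, 2 members passed p below 0.05.

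**Figure D3:**
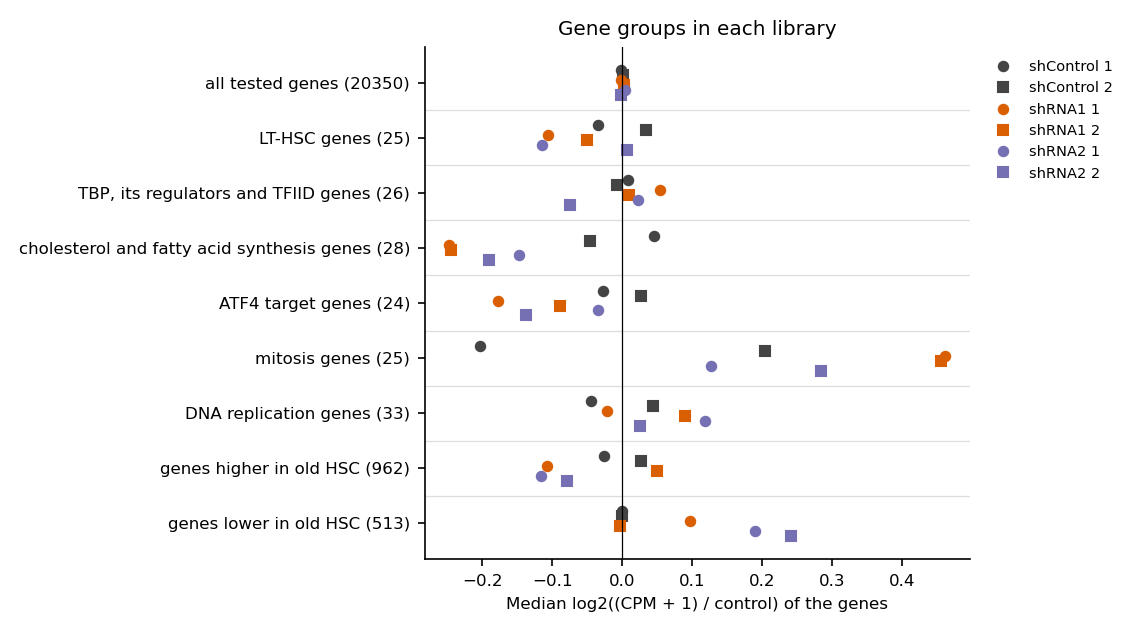
Median over the genes of a group of log2((CPM + 1) / control), where control is the mean of the 2 controls on the same log2 scale, for each of the 6 libraries (x axis) and 9 groups with their number of genes (y axis); circles are replicate 1, squares replicate 2. Cholesterol genes lay below both controls in all 4 knockdown libraries, mitosis genes lay above shControl replicate 1 in all 4 but above shControl replicate 2 in 3, and all tested genes lay at 0.

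The genes that define LT-HSCs were close to control. Of 25 members 2 passed p below 0.05 as lower (2.32% of all genes did) and 0 as higher (3.27%), and the median log2 fold change was -0.02. The 2 were Kit, the stem cell factor receptor (1636 and 1567 CPM in controls; 1488, 1374, 1300 and 1427 CPM after knockdown), and Ly6a, which encodes Sca-1 (195 and 185 CPM; 150, 147, 153 and 180 CPM). Both encode surface proteins used in the sort. Mecom, Hlf, Meis1, Procr and Hoxb5 had log2 fold changes between -0.05 and 0.02. Among 23 tested cytokine receptor genes Csf2rb, the shared beta chain of the IL-3 and GM-CSF receptors, was called higher (1.43% of all genes were). It had 15.04 and 9.74 CPM in controls and 14.6, 25.5, 27.4 and 24.8 CPM after knockdown, so that shRNA1 replicate 1 lay within the controls. Kit and Tnfrsf1b were the members below 0.05 as lower.

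Genes known to rise in aged HSCs were lower in a few members. Of 22, 4 passed p below 0.05 as lower (2.32% of all genes did) and 1 as higher (3.27%), and the median was -0.30. Neo1 was the 1 called member (0.811% of all genes were called lower), with shRNA2 alone short of the 1.5-fold limit (log2 -0.47). By library the median lay at -0.65 and 0.062 with shRNA1 and at -0.22 and -0.29 with shRNA2 relative to the control mean, so shRNA1 replicate 2 did not share the lower level. Neo1, a netrin and hemojuvelin receptor, was at 50.9 and 77.3 CPM in controls and 27.2, 43.2, 44.6 and 47.6 CPM after knockdown. Trpc6, a calcium channel, was at 122 and 144 CPM against 82.3, 95.3, 114 and 112 CPM, and Nupr1, a stress-induced chromatin protein, at 198 and 175 CPM against 95.5, 159, 132 and 147 CPM. Ehd3 had 56.7 and 69.3 CPM against 36.1, 61.3, 44.2 and 37.5 CPM, overlapping the controls. Aldh1a1, a retinaldehyde dehydrogenase, was the member higher (203 and 204 CPM against 211 to 237 CPM). The canonical aging genes Selp (316 and 284 CPM against 247, 350, 255 and 336 CPM), Vwf (222 and 408 CPM against 162, 381, 187 and 208 CPM) and Clu (30.8 and 70.3 CPM against 20.4, 62.5, 23.4 and 20.01 CPM) overlapped. For Vwf and Clu shControl replicate 2 and shRNA1 replicate 2 were the high libraries.

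Few megakaryocyte and platelet genes passed the test. Of 26 tested members 1 passed p below 0.05 (5.59% of all genes did), the low-abundance Mrvi1 given above, and the median was -0.05. Plek, which encodes the platelet protein pleckstrin, was at 81.8 and 77.3 CPM in controls and at 38.3, 74.4, 43.9 and 67.2 CPM after knockdown (log2 -0.51, SE 0.25). Itgb3, the platelet integrin beta 3, was at 146 and 127 CPM against 84.5, 144, 84.8 and 78.2 CPM, and Cavin2 at 108 and 175 CPM against 51.4, 125, 92.2 and 78.6 CPM. In both genes shRNA1 replicate 2 lay at the control level and the other 3 knockdown libraries below it.

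Neutrophil and granule genes showed the highest median of any list, 2.41, and the most uneven libraries. Of 22 tested members 6 passed p below 0.05 as higher (3.27% of all genes did) and 0 as lower. Of the 6, 5 were called, against 1.43% of all genes (Mmp9, Fcnb, Cxcr2, Cebpe and Mmp8). Control means of these 5 were 0.024 to 0.181 CPM, so they passed the filter on low counts only through the knockdown libraries. With no such filter 3 members passed p below 0.05 as higher. Without shControl replicate 2, 2 members passed p below 0.05. The summed level of the list was 646 and 365 CPM in controls, 1277 and 626 CPM with shRNA1 and 423 and 904 CPM with shRNA2, so the groups overlapped. Ngp was at 29.1 and 1.18 CPM in controls and 158, 52.2, 4.25 and 157 CPM after knockdown, and Ltf at 9.01 and 1.18 CPM against 69.2, 19.995, 1.67 and 62.5 CPM. These granule genes are made by maturing neutrophils and not by HSCs. Mpo reached 181 CPM in shRNA1 replicate 1 and 0.658 to 36.03 CPM elsewhere. Gfi1, a repressor needed both in neutrophil progenitors and in HSCs, was at 36.9 and 41.1 CPM against 63.6, 63.1, 37.6 and 48.9 CPM. The cells were sorted as Lineage-negative, a gate meant to remove granulocytes, and the part of granulocyte RNA in these values was not tested. In addition, in bulk samples more cells of a type and more RNA per cell cannot be told apart.

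Erythroid and macrophage genes stood out in shRNA2 replicate 1. Of 26 erythroid genes Rhd alone was called, as higher (1.43% of all genes were). The median log2 fold change was 0.88, and it was 0.091 without shRNA2 replicate 1 and 0.087 with the replicate number as a block. The median level of the list lay 0.89 above the control mean in shRNA2 replicate 1 and between -0.18 and 0.12 of it in the other 3 knockdown libraries, on the log2(CPM + 1) scale. Of 18 monocyte, macrophage and dendritic cell genes Cd14 was called higher (1.43% of all genes were) and Clec9a lower (0.811%). Cd14 was at 0.856 and 0.963 CPM against 1.46, 1.79, 3.19 and 1.92 CPM. Clec9a was at 3.78 and 7.17 CPM against 2.14, 4.73, 1.90 and 2.90 CPM. Adgre1, which encodes the macrophage antigen F4/80, was at 5.29 CPM in shRNA2 replicate 1 and 0.190 to 0.486 CPM elsewhere, and C1qb at 12.05 CPM against 1.73 to 3.42 CPM. The summed level of the macrophage list was 744 and 675 CPM with shRNA2, 485 and 375 CPM with shRNA1 and 547 and 524 CPM in controls. Lyz2 supplied most of it, with 620 and 591 CPM in the shRNA2 libraries. Without shRNA2 replicate 1 the median of this list went from 0.60 to -0.084.

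Lymphoid genes moved singly. Of 17 tested lymphoid priming genes 2 were called higher (1.43% of all genes were), Cd48 among them, 0 were lower (0.811%), and the median was -0.02. That median was positive without either control, shRNA1 replicate 1 or shRNA2 replicate 1 (0.031 to 0.17). Cd48, whose product is absent from the sorted population by gate, was at 1.33 and 1.02 CPM in controls and 2.14, 1.97, 2.83 and 1.55 CPM after knockdown. Thy1, of the T and NK cell list, was at 0.665 and 0.642 CPM against 0.996, 1.10, 1.27 and 1.24 CPM, and Gata3, in the same list but also expressed by HSCs, at 58.9 and 81.1 CPM against 57.6, 44.3, 41.8 and 52.0 CPM. Of 21 T and NK cell genes 7 passed the filter, and Cd3g, Cd2 and Cd8a had 0 reads in all 6 libraries. Of 16 B cell genes 7 passed and none had p below 0.05, and of 9 tested plasma cell genes Xbp1 passed as higher (244 and 228 CPM against 258 to 302 CPM). Ms4a1 and Blk of the B cell list had 0 reads throughout. Of 5 tested mast cell, basophil and eosinophil genes Il4 was called higher, with overlapping libraries (4.33 and 6.5 CPM against 10.4, 6.49, 9.19 and 7.74 CPM). None of 9 stroma and endothelium genes passed p below 0.05.

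Antigen presentation, stress and metabolic genes are given by their counts, beside 3.27% of all genes that passed p below 0.05 as higher and 2.32% as lower. For calls the shares of all genes were 1.43% higher and 0.811% lower. Of 11 MHC class II genes H2-Aa and Cd74 passed p below 0.05 as lower, Cd74 at 386 and 531 CPM in controls and 348 to 420 CPM after knockdown. Of 23 immediate early and dissociation stress genes 4 passed as lower and 0 as higher: Zfp36, which destabilises inflammatory mRNAs (42.0 and 45.5 CPM against 33.4, 31.7, 28.2 and 33.5 CPM), Egr1, Ier2 and Junb. Of 24 ATF4 targets 3 passed as lower (Nupr1, Wars and Asns), and of 19 unfolded protein response genes Xbp1 was higher and Calr lower. None of 38 interferon response genes, 21 TNF and NF-kB genes, 17 p53 targets, 20 antioxidant and metallothionein genes, 76 ribosomal protein genes and 13 mitochondrially encoded mRNAs passed p below 0.05. Of 80 nuclear oxidative phosphorylation genes 1 passed as higher and 2 as lower, and of 38 proteasome genes 1 as lower. Of 26 TGF-beta and BMP genes Id1, an inhibitor of bHLH factors (3.14 and 2.89 CPM against 5.00, 4.05, 5.16 and 4.81 CPM), and the receptor Bmpr1a (7.27 and 7.54 CPM against 7.29, 15.2, 23.7 and 15.6 CPM) were called higher. Of 22 adhesion and homing genes 1 was called higher and Itga6, the laminin receptor chain, passed as lower (267 and 285 CPM against 217 to 237 CPM). Glycolysis genes gave 1 higher and 2 lower of 21, and lysosome and autophagy genes 1 and 1 of 28. Of 35 tested replication-dependent histone genes 1 passed, Hist1h2aj, at 0.447 CPM or less in every library.

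Genes that differ between young and old HSCs were next followed after knockdown, and their counts are given beside those of all genes as a description, without a test of the group. Between 4 young and 8 old libraries, which share none with the knockdown, 1010 genes were higher with age (4.69% of 21522) and 608 lower (2.83%), by edgeR's adjusted p (limit 0.05) together with the 1.5-fold limit. Of 513 age-lower genes tested after knockdown, 54 were called higher (10.5%, against 1.43% of all genes) and 6 lower (1.17%, against 0.811%), with a median log2 fold change of 0.22. Of 962 age-higher genes, 36 were called lower (3.74%) and 15 higher (1.56%), with a median of -0.064. These smaller counts rested on single libraries: the 36 became 18 without shControl replicate 2 and 69 without shRNA1 replicate 2, the 15 became 29 without shControl replicate 1, and the 6 became 10 without shRNA2 replicate 1. The 54 ranged from 38 to 79 over the leave-outs. The age-lower genes were of lower abundance than the whole (median 3.49 CPM), and the difference was present at either level. Among those with a mean of at least 10 CPM 14 of 146 were called higher (9.59%, against 0.274% of all genes at that level), and among those below it 40 of 367 (10.9%, against 2.67%).

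The libraries took part unequally in this shift. Relative to the control mean, the median level of the age-lower genes was 0.097 and -0.0029 in the shRNA1 libraries and 0.19 and 0.24 in the shRNA2 libraries on the log2(CPM + 1) scale. That of the age-higher genes was -0.11 and 0.050 with shRNA1 and -0.12 and -0.078 with shRNA2. Replicate 2 of shRNA1 therefore stood at or beyond the control level for both groups. Of the 54 genes 4 belonged to the blood cell lists described above and none to the mitosis or cholesterol lists.

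Of the age-lower genes called higher, the 5 with the lowest p are given with their levels. Fcer1g, the signalling chain of Fc receptors, was at 5.28 and 3.72 CPM in controls and at 14.8, 8.49, 11.7 and 10.8 CPM after knockdown (log2 1.35, SE 0.25, unadjusted p = 0.000433), and at 31.96 CPM in YHSCs and 19.6 CPM in OHSCs (means of 4 and 8). Ncf1, a subunit of the phagocyte NADPH oxidase, was at 5.58 and 6.93 CPM against 12.05, 10.4, 10.3 and 10.6 CPM. Cyp27a1, the sterol 27-hydroxylase, was at 2.35 and 1.77 CPM against 4.83, 6.02, 5.04 and 10.1 CPM. Nrk and Gria3, given above, were the others of the 5. Among the age-higher genes called lower, Il17rc, a subunit of the interleukin 17 receptor, was at 11.3 and 14.0 CPM in controls and 7.21, 3.21, 4.61 and 3.49 CPM after knockdown. Serpinb10, a protease inhibitor, was at 1.497 and 2.27 CPM against 0.632, 0.657, 0.532 and 0.673 CPM. Amotl2 (15.7 and 21.4 CPM against 7.21 to 12.8 CPM), Abat (19.3 and 27.6 CPM against 11.8 to 17.3 CPM) and Jph4 completed these 5.

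Other genes moved in the direction of age. Slpi, a leukocyte protease inhibitor that is higher in OHSCs, was at 1.28 and 1.18 CPM in controls and 2.55, 2.68, 3.29 and 3.05 CPM after knockdown, and Gem, a small GTPase, at 115 and 190 CPM against 299, 237, 280 and 226 CPM. Rab40b, Ackr1 and Tmem200b were also higher with age and called higher, Rab40b without passing the 1.5-fold limit with each hairpin. Insm1, Gbp11, Slc22a3, Crybg1 and Slc1a4 were lower with age and called lower, Crybg1 without passing that limit with each hairpin, and Gbp11, an interferon-induced GTPase, was at 5.37 and 4.04 CPM against 2.11, 2.10, 2.00 and 1.37 CPM. Btaf1 had a mean of 93.2 CPM in YHSCs and 134 CPM in OHSCs, below the 1.5-fold limit.

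**Figure D4:**
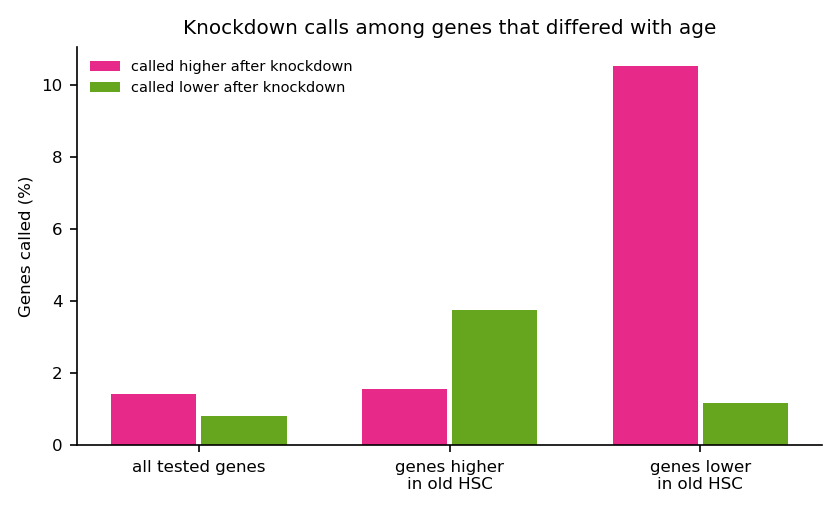
Share of genes called higher (pink) or lower (green) after knockdown (y axis, %), for all 20350 tested genes, 962 genes higher in old HSCs and 513 genes lower in old HSCs. Genes lower with age were called higher in 10.5% of cases and lower in 1.17%, and genes higher with age were called higher in 1.56% and lower in 3.74%.

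Because BTAF1 acts on TBP at TATA boxes, RefSeq promoter windows (GRCm38.p6, 250 bases before to 50 after the start) were searched for the letters TATAAA on the gene's strand, beginning 40 to 20 bases before the start. Of 32851 windows 655 held them (1.99%), and of 15115 windows of tested genes 178 did (1.18%). Of the 177 tested genes with the motif 6 were called higher (3.39%, against 1.43% of all genes) and 2 lower (1.13%, against 0.811%), and their median log2 fold change was 0.038. All 8 were also seen with both hairpins. Calls depended on abundance. Of all tested genes with a mean below 10 CPM 2.67% were called higher, against 0.274% of those at or above it. Calls as lower were also more frequent below 10 CPM. The motif genes were not split by level, so their shares are not matched for abundance with those of all genes. Whether the motif goes with more calls was not tested. A match is a description of the window and not evidence of TBP binding. A predicted gene without overlap between arms also held the motif, but its stretch, which overlaps another annotated gene, is not shown. The windows of 5 genes with established names and without overlap between arms are shown 5′ to 3′ to place the motif (in capitals) before each start. Each of the 5 lies upstream of its RefSeq start, outside any gene of GENCODE M21 except for Fetub, whose stretch falls in an exon annotated for Fetub itself.
Adamts1 (chr16:85803128-85803157, minus strand, motif 32 bases before the start): ctcctatgtggcTATAAAggggcggccggg
Nr0b2 (chr4:133553336-133553365, plus strand, 28 bases before the start): gcccatcaaggaTATAAAtagcactcacag
Ckb (chr12:111672349-111672378, minus strand, 28 bases before the start): gaatgaatgggcTATAAAtagccgccaatg
Fetub (chr16:22918339-22918368, plus strand, 31 bases before the start): ctgtttgcaagaTATAAAagggcagtcaga
H2-M5 (chr17:36989544-36989573, minus strand, 28 bases before the start): acaccgcagtgtTATAAAatccacagagga

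Adamts1, Nr0b2 and Ckb were higher after knockdown. Adamts1, a secreted metalloprotease, was at 1.47 and 2.46 CPM in controls and 2.53, 6.49, 4.05 and 4.04 CPM after knockdown. Nr0b2, which encodes the orphan nuclear receptor SHP, was at 2.45 and 2.35 CPM against 4.49, 2.79, 5.37 and 5.23 CPM, and Ckb, brain-type creatine kinase, at 4.90 and 2.94 CPM against 5.83, 6.73, 7.85 and 6.06 CPM. Fetub, a cystatin family inhibitor, was lower, at 3.90 and 4.68 CPM against 1.51, 3.52, 2.89 and 2.36 CPM. H2-M5, a nonclassical MHC gene, was lower, at 0.974 and 0.856 CPM against 0.181 to 0.389 CPM. All 5 are of low abundance.

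How many genes differed between the 2 hairpins depended on the method. Rtp4 and P2rx7 passed an adjusted p of 0.05 between shRNA2 and shRNA1 in edgeR (0.00983% of those tested), while 2217 genes passed the unadjusted limit (10.9%), against 1507 for knockdown against control in the same fit with 3 groups. Rtp4, an interferon-induced chaperone of receptors, was at 80.1 and 80.5 CPM in controls, 56.2 and 62.9 CPM with shRNA1 and 107 and 113 CPM with shRNA2 (shRNA2 minus shRNA1: log2 0.89, SE 0.081, adjusted p = 0.0408). P2rx7, an ATP-gated channel, was at 17.1 and 19.4 CPM, 11.03 and 8.96 CPM, and 27.8 and 28.6 CPM (log2 1.497, SE 0.15, adjusted p = 0.0459). In both genes the controls lay between the hairpins, so neither gene entered the pooled calls. At the same adjusted limit DESeq2 gave 309 genes for this comparison, and edgeR without the filter on low counts gave 805.

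The effect of knockdown was then compared with that in HSCs cultured after infection, which share no library with the transplanted cells. In culture 420 of 21443 genes were called higher (1.96%) and 173 lower (0.807%). Of the 290 genes called higher after transplantation 17 were called higher in culture (5.86%) and 7 lower (2.41%), and of the 165 called lower 3 were called lower (1.82%) and 12 higher (7.27%). The direction was the same in 56.2% of the genes called higher and 50.3% of those called lower, while 50.5% of all genes were positive and 49.2% negative in culture. Slc22a3 had a log2 fold change of -0.70 after transplantation and -0.61 (SE 0.14) in culture.

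Cholesterol and mitosis genes differed in how the experiments compared. Of the 28 cholesterol and fatty acid synthesis genes 20 passed p below 0.05 as lower in culture (4.57% of all genes did) and 0 as higher, with a median log2 fold change of -0.42 there against -0.23 after transplantation. Sqle, squalene epoxidase, had -0.32 (SE 0.10) after transplantation and -0.39 (SE 0.082) in culture. Of the 25 mitosis genes 13 passed as lower in culture and 0 as higher (4.75% of all genes did), with a median of -0.23, whereas all 25 were positive after transplantation. The difference between the experiments passed an adjusted p of 0.05 for 45 genes (0.21% of those tested), 22 with the transplanted effect higher and 23 with it lower. This count was 13 with the replicate number as a block, 94 without the filter on low counts and 299 with DESeq2. Tpx2 (difference 0.55, SE 0.087, adjusted p = 0.0253), Bub1 (0.81, SE 0.14, adjusted p = 0.0383) and Kif11 (0.78, SE 0.14, adjusted p = 0.0438) were the mitosis genes among them. On the scale of the joint fit Tpx2 was at 212 and 200.3 CPM in cultured controls against 51.9 and 55.4 CPM in transplanted controls. The cultured and transplanted cells also differ in time since infection, environment and sort, whose parts cannot be told apart here.

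**Figure D5:**
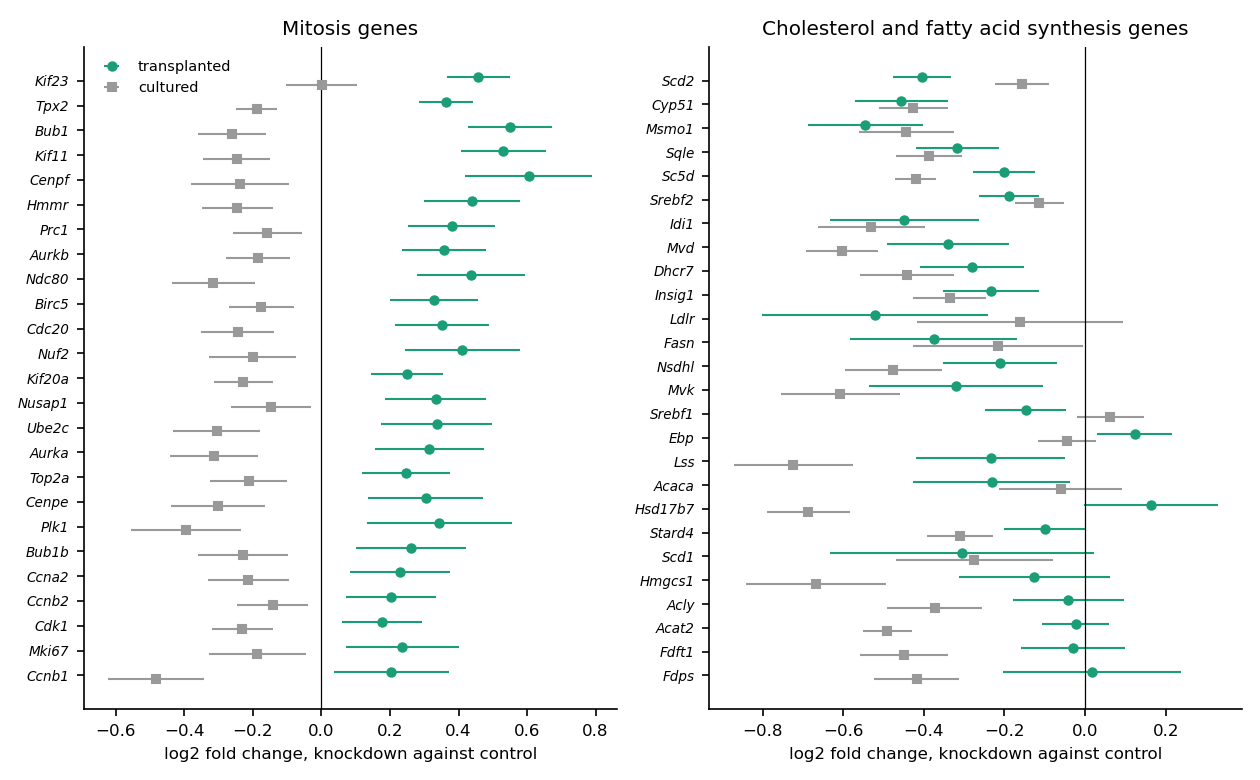
Log2 fold change of knockdown against control (x axis; points with bars of 1 SE) in transplanted (green circles) and cultured (grey squares) HSCs for 25 mitosis genes and 26 of the 28 cholesterol and fatty acid synthesis genes. All 25 mitosis genes were positive after transplantation and 13 passed p below 0.05 as lower in culture, while 7 and 19 of the plotted cholesterol genes passed as lower in the transplanted and cultured cells.

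Among genes with an adjusted p below 0.05 for the difference between the experiments, the 3 largest differences in each direction were examined, and 5 of these 6 genes had an adjusted p below 0.05 in culture, Htr7 being the exception. Chad, which encodes the matrix protein chondroadherin, had log2 fold changes of -0.15 after transplantation and 4.42 (SE 0.40) in culture (difference -4.57, adjusted p = 0.00331). Rprm, a p53-responsive cell cycle inhibitor, had -0.40 and 2.5 (difference -2.90, adjusted p = 0.0253), and Cyp26b1, a retinoic acid hydroxylase, -0.72 and 1.87 (difference -2.59, adjusted p = 0.0301). Cd48 had 0.85 after transplantation and -1.53 in culture (difference 2.37, adjusted p = 0.0103), and Nrk 0.79 and -1.25 (difference 2.04, adjusted p = 0.0301). Htr7, a serotonin receptor, was at most 0.88 CPM in any transplanted library and had a difference of 4.34 (adjusted p = 0.0438).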

How the data were processed

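Reads were, per the labels and the study's methods, trimmed with cutadapt through Trim Galore, aligned to mm10 with STAR using GENCODE M22 and counted per gene with featureCounts by the authors, who deposited raw counts per gene; the sources used here do not give strand and multi-mapping settings. Genes passing edgeR's filterByExpr were tested with a quasi-likelihood model (edgeR 4.0.16, TMM, robust), 4 knockdown against 2 control libraries, with Benjamini-Hochberg adjustment. Hairpin contrasts came from a 3-group fit, the comparison with culture from an interaction term in 12 libraries, and age calls from 12 other libraries. DESeq2 (1.42.0), other scaling, no filter and left-out libraries were alternatives. Named genes were Btaf1, the other genes of its domain, Tbp, the 10 largest rises and falls seen with both hairpins without overlap, up to 4 members of each list with the lowest p and any called member, and the leading genes of the age, hairpin and culture comparisons. The members and lists were chosen with earlier results of these data known. Coordinates and promoters came from GENCODE M21 and RefSeq on GRCm38. Genes with a mean of at least 10 CPM were singled out after their values were seen. Scripts were tested on simulated data. Replicate numbers are shared between groups, but deviations of same-numbered libraries correlated at -0.014 to 0.036, so they were not taken as pairs. A few genes that the rule names are not reported here, although they are counted in their groups.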

Additional observations from a re-analysis of the deposited data

Results flagged for a closer look

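In 14 of 154 named genes a single knockdown library stood apart from the other 3 by Dixon's criterion at the 95% level. Chance meets it in about 1 of 20 groups of normally distributed values. Low CPM values need not be normal, and with the other 3 libraries at 0 the criterion is met by construction. The count is therefore not to be set against that rate. Rhd was at 4.05 CPM in shRNA2 replicate 1 and 0.121 to 0.595 CPM in the others. Bub1 was at 34.3 CPM in shRNA1 replicate 1 against 27.4 to 28.4 CPM, Slc2a3, a glucose transporter gene, at 279 CPM in shRNA2 replicate 2 against 302 to 306 CPM, and Gbp11 at 1.37 CPM in the same library against 2.00 to 2.11 CPM. Mpo was at 181 CPM in shRNA1 replicate 1 against 0.658 to 8.46 CPM. Clu (62.5 CPM) and Itgb3 (144 CPM) were high in shRNA1 replicate 2, and Adgre1 (5.29 CPM) and C1qb (12.05 CPM) in shRNA2 replicate 1. Jph4 stood at 0.437 CPM in shRNA1 replicate 1. Opcml (0.0486 CPM in shRNA1 replicate 1), Cnksr2 (0.105 CPM) and Tnfaip6 (0.158 CPM; both in shRNA1 replicate 2) and Mrvi1 (0.253 CPM in shRNA2 replicate 1) were each read in 1 knockdown library and at 0 in the other 3.

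The knockdown effect differed between transplanted and cultured HSCs (interaction, edgeR, adjusted p below 0.05) for 13 named genes. On the log2 scale, transplanted minus cultured, the difference was 4.34 for Htr7, 2.37 for Cd48, 2.04 for Nrk, 0.89 for the histone gene Hist1h2ae, 0.81 for Bub1, 0.78 for Kif11 and 0.55 for Tpx2. It was -4.57 for Chad, -2.90 for Rprm, -2.59 for Cyp26b1, -0.49 for Gclm, a subunit of the enzyme of glutathione synthesis, -0.47 for the cyclin gene Ccng1 and -0.41 for H2-DMa, which loads peptides on MHC class II.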

How the results depend on the processing

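With 2 control libraries, each control decided much of the result: of the 290 genes called higher 37.9% were also called without shControl replicate 1 and 39.3% without shControl replicate 2. Of 154 genes recomputed, 119 had an unadjusted p below 0.05. These 119 were thus selected by p, many also for libraries without overlap, so a kept direction was largely built in. None of these changed direction under an alternative that gave it a value (110 had one without the pair of libraries named below), but without either control 67 still passed that limit. DESeq2 gave 48 genes at an adjusted p below 0.05, 309 between the hairpins, 299 for the difference from culture and 10 higher neutrophil genes. Without the filter on low counts 341 genes were called lower, 301 of them lower with both hairpins, 805 differed between the hairpins, 94 differed from culture and 3 neutrophil genes were higher. A fit of the 12 transplanted and cultured libraries gave 267 and 210 lower genes and 1 at an adjusted p, and a fit with 3 groups gave 10 age-lower genes called lower. Leaving out single libraries gave 14 to 29 age-higher genes called higher, 18 to 69 called lower, 6 to 10 age-lower genes called lower, 2 to 8 neutrophil, 4 to 24 mitosis and 2 to 11 cholesterol genes. The median of the macrophage list ranged from -0.084 to 0.85. Other list medians that changed sign ranged over -0.318 to 0.0107 for MHC class II, -0.00296 to 0.168 for lymphoid priming, -0.0355 to 0.0244 for lysosome, -0.12 to 0.0551 for histone and -0.0600 to 0.104 for cytokine receptor genes. Without shRNA1 replicate 1 and shRNA2 replicate 1 together, an alternative chosen after seeing the data, 28 age-higher genes were called higher and 13 age-lower genes lower, and the medians were -0.11 for erythroid (0.88 with all libraries), -0.033 for macrophage and 0.092 for lymphoid priming genes. The causes were not tested.

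Same-numbered libraries did not deviate together (correlations -0.014 to 0.036), so they share only a number. With the replicate number as a block, 268 genes were called higher and 160 lower, and 13 genes differed from culture.

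Of the other genes, 19 changed direction under at least 1 alternative. Over single left-out libraries the log2 fold changes were Selp (-0.104 to 0.0623), Clu (-1.25 to 0.0362), Vwf (-0.800 to 0.077), Eif2s3y (-0.0568 to 0.0311), Tnks2 (-0.0923 to 0.0992), Cpeb3 (-0.241 to 0.265), Fgfbp3 (-0.0367 to 0.172), Mecom (-0.144 to 0.109), Hlf (-0.181 to 0.101), Meis1 (-0.0261 to 0.0206), Procr (-0.0517 to 0.0675), Hoxb5 (-0.102 to 0.159), Mpo (-2.25 to 5.35), C1qb (-0.133 to 1.124), Lyz2 (-0.084 to 0.211), Rtp4 (-0.0944 to 0.227), P2rx7 (-0.201 to 0.300) and Chad (-0.619 to 0.574). Direction also changed without that pair of libraries for Selp (0.19), March5 (0.00221), Fgfbp3 (-0.0574), Mecom (0.0367), Hlf (0.0486), Meis1 (0.0128), Procr (-0.00325), Mpo (-1.74), C1qb (-0.0775) and Lyz2 (-0.0622), without the filter on low counts for Tnks2 (-0.00557), in the fit with 3 groups for Tnks2 (-0.0101), Mpo (-0.567) and P2rx7 (-0.12), in the fit of 12 libraries for Tnks2 (-0.00197), and with the replicate block for Cpeb3 (0.00498).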

Other observations

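Over 38 interferon response genes the median log2 fold change was -0.09 with shRNA1 and 0.20 with shRNA2, a difference not tested for the group. By library the median lay at -0.074 and -0.11 with shRNA1, 0.068 and 0.28 with shRNA2 and -0.042 and 0.042 in controls, on the log2(CPM + 1) scale relative to the control mean, so shRNA2 replicate 1 was near shControl replicate 2. None passed p below 0.05 with the 4 libraries pooled. In culture their median was 0.71, with 2 members higher at p below 0.05. The 13 mitochondrially encoded mRNAs had a median 0.38 above the control mean in shRNA2 replicate 1, the library with the most mitochondrial reads (1.00%), and between -0.015 and 0.050 in the other knockdown libraries, on the log2(CPM + 1) scale.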
